A study of Homo sapiens with 12 samples.

Results

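The genes described are the listed genes of muscle contraction and of the myosin filament in MCF-10A, a non-malignant breast epithelial cell line. They were chosen by the gene ontology (GO) terms that the authors found enriched among the genes of their MCF-10A table, which were themselves selected on the difference between constriction and control cells. Members of muscle contraction and of myosin filament were joined, which gave 39 genes, and 11 of these were set aside because they also belong to a term for gated ion channels, inflammation, cytokines, humoral response, extracellular matrix or cell-cell adhesion by membrane molecules. The 28 genes that remained are 28 of the 2680 genes in the MCF-10A table and of the 3090 genes in the tables of the series. Of the 28, 27 belong to muscle contraction and 6 to myosin filament, with 5 in both. Because the values in MCF-10A chose the members, these values are described here without a test, and they support nothing by themselves.

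The study pushed cells by a hydrostatic pressure of 7 to 33 cmH2O through channels with a width and a height of 5 µm and a length of 150 µm, as a model of narrow capillaries, and compared them with cells that had not passed a constriction. Poly A enriched RNA of 12 samples was sequenced, with 2 constriction and 2 control libraries each from MCF-10A, from the triple negative breast cancer line MDA-MB-231 and from LM2, a line derived from MDA-MB-231 for its spread to the lung. All 3 are established lines of cells grown in culture. For MCF-10A, constriction replicates 1 and 2 rest on 29978695 and 35494737 reads, and control replicates 1 and 2 on 36123663 and 46436989 reads. The study's supplement gives lower cell concentrations for constriction than for control cells in both MCF-10A replicates. Its RNA amounts were lower in constriction replicate 1 and higher in constriction replicate 2 than in the control of the same number. The part of these differences in the values was not tested.

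Muscle contracts when myosin heads on thick filaments pull on actin in thin filaments. In striated muscle, calcium reaches troponin on the thin filament and opens the sites that myosin binds, whereas in smooth muscle a kinase that calcium and calmodulin activate phosphorylates the light chain of myosin. Epithelial cells use related non-muscle myosins for cell shape, adhesion and division, and most of the sarcomere proteins are known from muscle and not from breast epithelium.

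After transit, the mean normalised count was lower than in control cells for 27 of the 28 genes (96.4%), against 94.5% of the table, where a normalised count is the read count divided by the library's size factor. The exception was CAV3. The groups did not overlap in 27 genes (96.4%), which means that every constriction library was below every control library, and groups of 96.8% of the table did not overlap in either direction, or 94.5% with constriction below. In 2 of the 27, SLC8A1 and ATP8A2, control replicate 1 held 2 reads, which cannot be told from 0 at this depth. Reads were 0 in both constriction libraries for 26 of the 28 genes (92.9%), against 89.6% of the table. These shares lie near those of the table, and nothing particular to contraction is read from them. Summed over the 28 genes, control replicates 1 and 2 held 1524 and 1007 reads, and constriction replicates 1 and 2 held 364 and 1. All 364 reads came from CAV3, and the lone read of constriction replicate 2 from MYH11. In samples of many cells, fewer cells that make an RNA and less of it per cell cannot be told apart.

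A gene with 0 reads may have had up to 3 by counting error, which is a normalised count of 3.62 and 3.11 in constriction replicates 1 and 2, with a mean of 3.36. Where both constriction libraries had 0 reads, the fold is therefore a bound against this mean, and the bounds cover counting error only, since reads copied by PCR without molecular identifiers are not independent molecules. Over the 26 genes with 0 reads, the bounds had a median of 9.06, and with both control libraries DTNA had the weakest, at least 2.51-fold lower, and ABAT the strongest, at least 43.8-fold lower. Without control replicate 1, the bound of ABAT was 24.4, and MYOM1 had the weakest bound, 1.41. Without control replicate 2, MYL2 had the weakest, 2.04, and SLC8A1 and ATP8A2 had none, since their other control library held 2 reads. On the log2 scale with a pseudocount of 1, the median difference of the 28 genes was -4.82, and -4.05 over the table. With genes of 0 to 3 reads put at their bound, these medians were -3.07 and -2.25. Per length the order was the other way round, with medians on log2(FPKM + 1) of -0.16 for the 28 genes and -0.31 for the table. The mean control level set how far below it the floor of 3 reads lay, and its median was a normalised count of 28.2 for the 28 genes and 16.6 for the table.

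**Figure D1:**
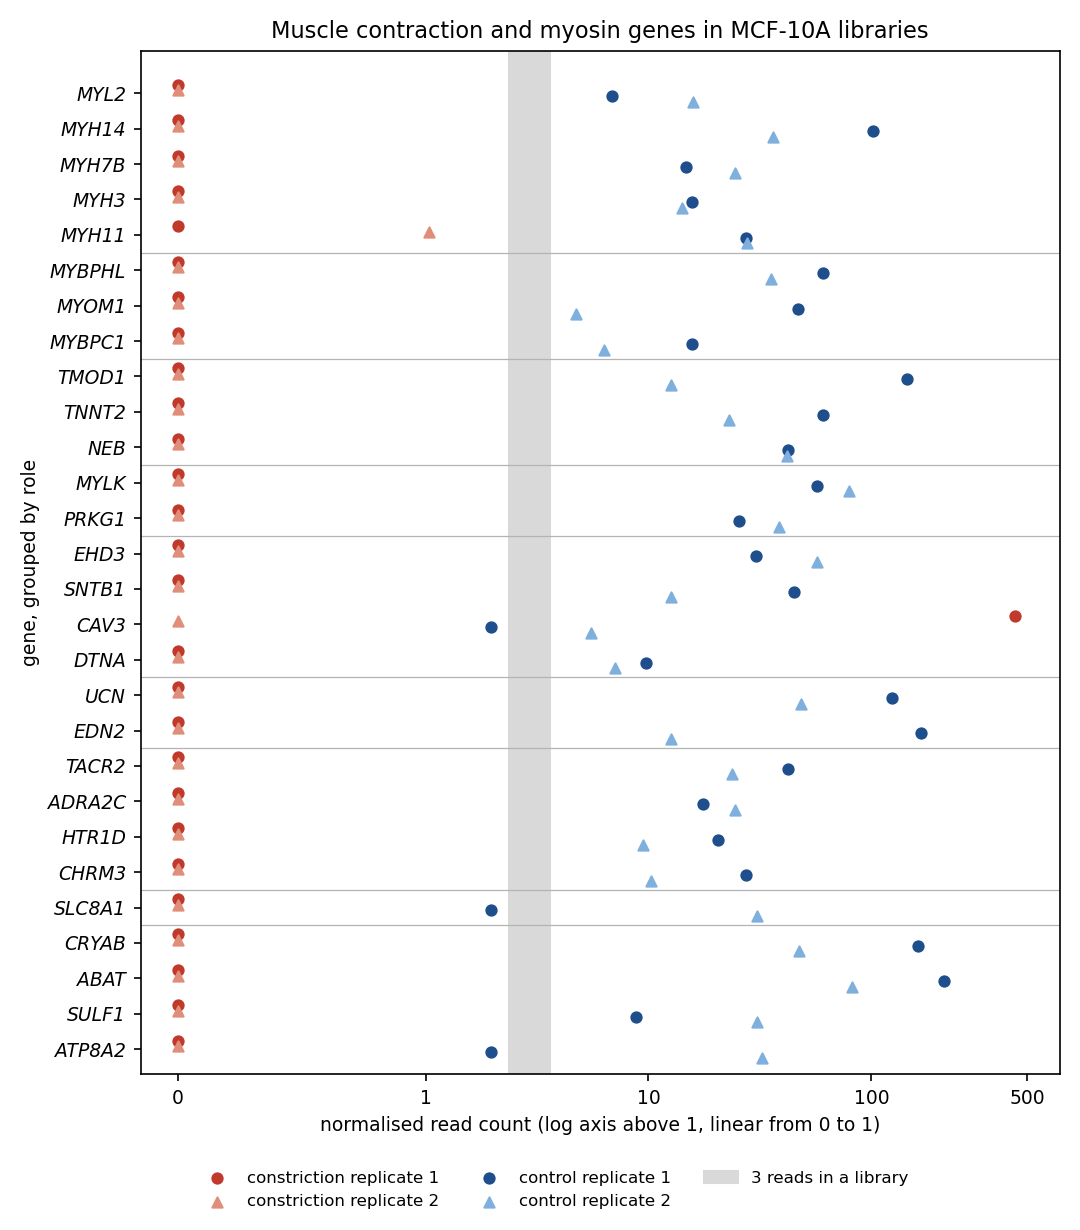
Normalised read counts of the 28 genes in the 4 MCF-10A libraries, with genes grouped by role on the vertical axis and the count on the horizontal axis, logarithmic above 1 and linear below. Each point is a library, and the grey band marks 3 reads in a library; 26 genes lie at 0 in both constriction libraries, MYH11 has 1 read in constriction replicate 2, and CAV3 alone lies above its control libraries in constriction replicate 1.

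The myosin chains comprised 4 heavy chains and a light chain. MYH14 encodes a non-muscle myosin II heavy chain, the kind that epithelial cells use in their cortex. It had 104 and 46 reads in control replicates 1 and 2 and 0 in both constriction libraries, and lies on chromosome 19 from 50188186 to 50310544. MYH11 is the heavy chain of smooth muscle, on chromosome 16 from 15703172 to 15857033. Its reads were 28 and 35 in the control libraries, and 0 and 1 in constriction replicates 1 and 2. The 63 control reads against 1 constriction read, each sum scaled by the summed size factors of its group, gave a ratio of 49.4. The exact 95% counting interval, from 8.56 to 1984, covers counting error only and leaves out the spread between libraries. It is no test of a change, since the values of these libraries chose the gene. MYH3 is the heavy chain of embryonic skeletal muscle. In control replicates 1 and 2 it had 16 and 18 reads, and 0 in both constriction libraries. MYH7B, a heavy chain related to that of slow and cardiac muscle, had 15 and 31 control reads and 0 after transit. MYL2, the regulatory light chain of the heart's ventricles and of slow skeletal muscle, had 7 and 20 control reads and 0 after transit. For all 5 chains, both constriction libraries lay below both control libraries, as for 94.5% of the table. The mean control counts of the chains after normalisation ran from 11.3 for MYL2 to 69.1 for MYH14.

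Beside the chains, 3 genes encode proteins that bind or link thick filaments. MYBPC1, a myosin binding protein C of slow skeletal muscle, had 16 and 8 reads in control replicates 1 and 2 and 0 in both constriction libraries. MYBPHL, a relative of myosin binding protein H, had 62 and 45 control reads and 0 after transit. MYOM1 encodes myomesin, which links thick filaments at the M-band. Its control libraries were far apart, with 48 and 6 reads, and its constriction libraries had 0. The RefSeq promoter of MYOM1, the 250 bases before its start site, is shown because it holds a CArG box, a site known to bind serum response factor in many muscle genes. It lies at chr18:3219969-3220218 on the minus strand of GRCh38.p14 and is written from 5′ to 3′, with capitals for the CArG box at -32 and for an E-box, CANNTG, at -63 from the start site.
MYOM1: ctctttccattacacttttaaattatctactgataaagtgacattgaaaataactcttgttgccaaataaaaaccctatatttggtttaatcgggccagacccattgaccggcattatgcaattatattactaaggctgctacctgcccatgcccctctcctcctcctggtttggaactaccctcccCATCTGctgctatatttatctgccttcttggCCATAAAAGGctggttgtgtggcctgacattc

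The thin filament was represented by TMOD1, TNNT2 and NEB. NEB encodes nebulin, a giant protein that runs along the thin filament of skeletal muscle. Its control libraries were close, with 43 and 53 reads, and its constriction libraries had 0, which is at least 12.5-fold lower. TNNT2 encodes troponin T of the heart, which ties troponin to tropomyosin. It had 62 and 29 reads in control replicates 1 and 2 and 0 after transit. TMOD1, tropomodulin, caps the slow-growing end of actin filaments. Control replicates 1 and 2 held 148 and 16 TMOD1 reads, and the constriction libraries 0. The promoter of TNNT2 is shown because it holds an M-CAT element, CATTCC, a motif first described in the promoters of cardiac troponin T genes. It lies at chr1:201377681-201377930 on the minus strand, and capitals mark the M-CAT element at -81 and E-boxes at -216, -204, -153 and -41.
TNNT2: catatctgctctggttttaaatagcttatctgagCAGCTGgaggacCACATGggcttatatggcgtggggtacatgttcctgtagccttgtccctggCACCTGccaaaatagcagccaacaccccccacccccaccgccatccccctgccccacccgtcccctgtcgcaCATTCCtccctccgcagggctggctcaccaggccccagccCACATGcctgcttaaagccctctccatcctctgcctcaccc

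A pair of kinases of contraction was listed. MYLK encodes the kinase that phosphorylates the regulatory light chain of myosin II and starts contraction in smooth muscle. It had 58 and 101 reads in control replicates 1 and 2 and 0 in both constriction libraries, which is at least 20.3-fold lower. PRKG1 encodes a kinase that cyclic GMP activates and that relaxes smooth muscle. Its reads were 26 and 49 in the control libraries and 0 after transit, at least 9.54-fold lower. A kinase that favours contraction and a kinase that opposes it thus both had 0 reads after transit. Since 89.6% of the table had 0 reads in both constriction libraries, nothing particular to this pair is read from it. The promoter window of MYLK is shown as the other window with a CArG box. It belongs to an internal start site, 263783 bases downstream of the annotated 5′ end of the gene, at chr3:123620549-123620798 on the minus strand. Capitals mark the CArG box at -94, the overlapping matches of TATAAA at -109 on the minus and at -105 on the plus strand, and an E-box at -116.
MYLK: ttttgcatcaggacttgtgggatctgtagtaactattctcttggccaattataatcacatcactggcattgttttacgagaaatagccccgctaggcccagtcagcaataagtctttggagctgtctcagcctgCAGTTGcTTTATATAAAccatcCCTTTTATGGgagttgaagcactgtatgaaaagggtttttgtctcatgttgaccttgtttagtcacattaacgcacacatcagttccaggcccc

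CAV3, which encodes the caveolin of muscle cells, was the exception to the pattern. It lies on chromosome 3 from 8733800 to 8841808, and its reads were 364 and 0 in constriction replicates 1 and 2, and 2 and 7 in control replicates 1 and 2. Its groups overlapped, because the constriction libraries lay on opposite sides of the control libraries. The log2 difference of the means, 5.54, rests on constriction replicate 1, and without that library it was -2.25. All 147 table genes with a higher mean after transit had more in constriction replicate 1 than in constriction replicate 2. Reads were 0 in constriction replicate 2 for 68 of these 147 genes, CAV3 among them, and 61 of the 147 had both constriction libraries above both control libraries. Constriction replicate 1 also held more reads over the whole table, 81281 against 19928 in constriction replicate 2, and the part of this in the CAV3 value was not tested. The promoter of CAV3 is shown because this gene alone went against the others, and because its window was the sole member window with a match to the MEF2 site, a motif known from muscle promoters. It lies at chr3:8733552-8733801 on the plus strand, with capitals for the MEF2 site at -140 and an E-box at -75.
CAV3: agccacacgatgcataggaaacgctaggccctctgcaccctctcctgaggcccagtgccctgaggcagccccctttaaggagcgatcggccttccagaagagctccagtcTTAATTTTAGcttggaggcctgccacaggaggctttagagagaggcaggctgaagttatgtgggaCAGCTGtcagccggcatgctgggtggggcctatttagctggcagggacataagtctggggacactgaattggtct

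The other genes of the muscle membrane and its scaffold had 0 reads in both constriction libraries, as did 89.6% of the table. SNTB1 encodes a syntrophin and DTNA a dystrobrevin, both partners of dystrophin at the sarcolemma. SNTB1 had 46 and 16 reads in control replicates 1 and 2. DTNA had 10 and 9 control reads, in sum the fewest control reads of the 28 genes other than CAV3. EHD3, which acts in the recycling of membrane from endosomes and in the anchoring of heart ion transporters, had 31 and 72 control reads. SLC8A1, the exchanger that moves sodium in and calcium out across the plasma membrane of heart cells, had 2 and 39 control reads. With control replicate 1 within the 3 reads that a count of 0 allows, the level of SLC8A1 in control cells rests on control replicate 2.

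Signals that start or stop contraction were represented by 2 secreted peptides and 4 receptors. EDN2 encodes an endothelin, a peptide that constricts vessels. It had 170 and 16 reads in control replicates 1 and 2 and 0 after transit. The bound of EDN2, at least 26.6-fold lower, was 3.76 without control replicate 1 and 49.5 without control replicate 2. UCN encodes urocortin, a peptide of the corticotropin-releasing family that acts on heart and vessels. Its reads were 127 and 61 in the control libraries and 0 after transit. The receptors all couple to G proteins. CHRM3, the muscarinic acetylcholine receptor that contracts smooth muscle, had 28 and 13 control reads. TACR2, the receptor for neurokinin A, had 43 and 30 control reads. ADRA2C, an adrenergic receptor, had 18 and 31 control reads, and HTR1D, a serotonin receptor, had 21 and 12. All 4 receptors had 0 reads in both constriction libraries, as did 89.6% of the table. For both the ligands and the receptors, the constriction libraries lay below both control libraries, as for 94.5% of the table.

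The last 4 genes encode enzymes and a chaperone that are annotated to contraction without being part of the filaments. ABAT, which breaks down the transmitter GABA, had the most reads in control cells among the 28 genes, with 217 and 104 in control replicates 1 and 2. It lies on chromosome 16 from 8674565 to 8784575, and its normalised count was 147 ± 92.2 (SD, n = 2) in control cells. CRYAB, a small heat shock protein that protects desmin and other filament proteins in muscle, had 165 and 60 control reads. SULF1, an extracellular enzyme that removes sulfate from heparan sulfate, had 9 and 39 control reads. ATP8A2, a pump that flips phospholipids across membranes, had 2 and 41 control reads, so its control level rests on control replicate 2. All 4 genes had 0 reads in both constriction libraries, as did 89.6% of the table.

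Levels of different genes were compared per length, as FPKM (fragments per kilobase of gene, scaled to the reads of the library), in control cells only. UCN was highest, with an FPKM of 4.42 and 1.65 in control replicates 1 and 2, and EDN2 came next, with 2.87 and 0.210. These 2 genes alone had a mean FPKM over 1. DTNA was lowest, with an FPKM of 0.0219 and 0.0153. Neighbours in this order were not resolved, since the control ranges overlapped in all 27 neighbouring pairs, but 26 genes lay wholly below UCN. The median control FPKM was 0.114 for the 28 genes and 0.251 for the table, so these genes were read more often than the listed genes at large and yet at a lower level per length. Gene length differs in the same direction, with a median of 7063.5 bases for the 28 genes and 2348 for the table. All 28 genes are protein-coding, and 44.4% of the table is. Among protein-coding genes of the table, the median control FPKM was 0.158 and the median normalised control count 20.4.

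**Figure D2:**
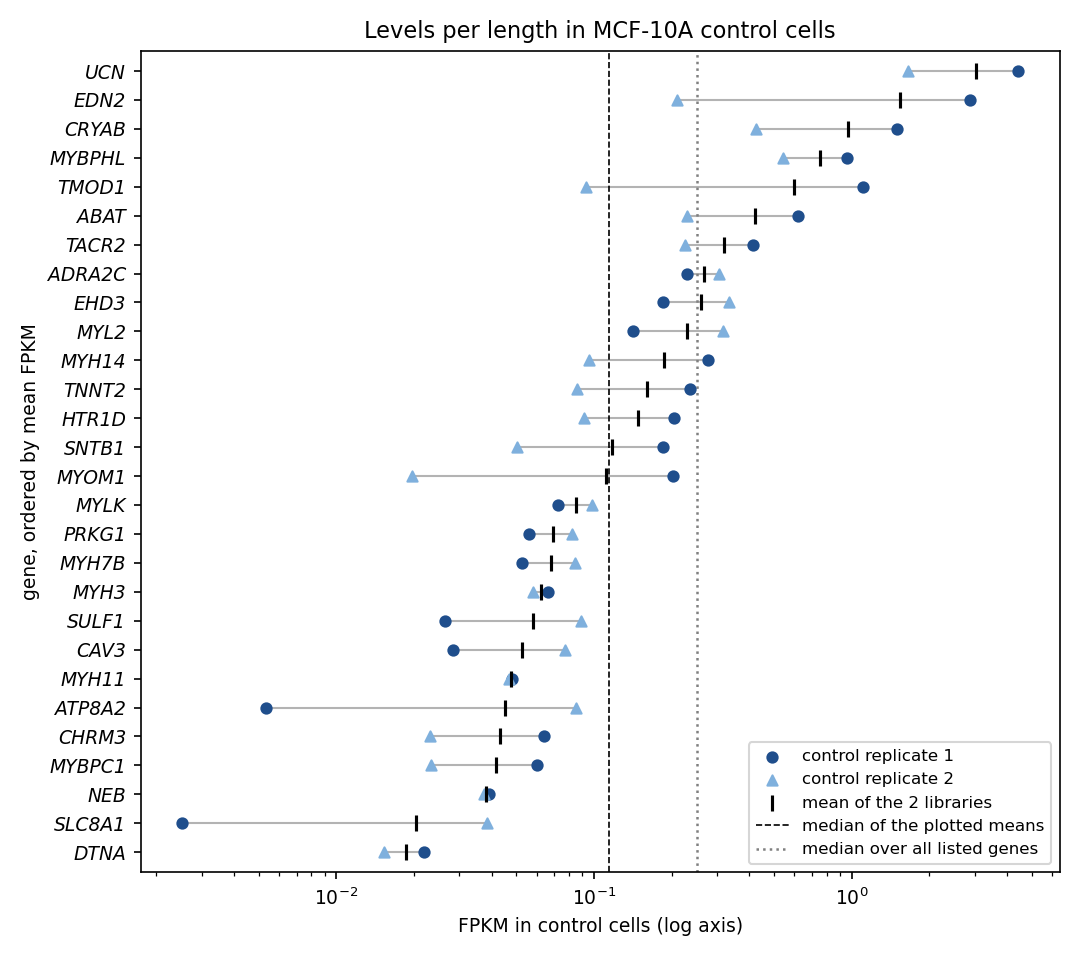
FPKM of the 28 genes in the 2 MCF-10A control libraries on a logarithmic horizontal axis, with genes ordered by their mean on the vertical axis. Points are libraries, bars are means, and the vertical lines are the median of the means plotted (0.114) and of all listed genes (0.251); peptide genes lead the order, and the myosin heavy chains lie in its middle and lower parts.

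The control libraries differed in how much of these genes they held. The normalised counts of the 28 genes summed to 1492 in control replicate 1 and 795 in control replicate 2, and 17 genes (60.7%) were higher in control replicate 1, against 55.6% of the table and 66.6% of its protein-coding genes. For 5 genes (17.9%) the control libraries were over 5-fold apart, and this share was 13.5% in the table and 18.8% in its protein-coding genes. EDN2, TMOD1 and MYOM1 were higher in control replicate 1, and ATP8A2 and SLC8A1 in control replicate 2. The control libraries were within 2-fold of each other for 11 of the 28 genes (39.3%), for 54.6% of the table and for 48.9% of its protein-coding genes. NEB and MYH11 were the closest, with normalised counts of 42.1 and 41.8 for NEB and 27.4 and 27.6 for MYH11. Of the 26 genes with a bound, 16 had a bound that moved by more than 1.5 times when a control library was left out, a check added after the data were seen.

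**Figure D3:**
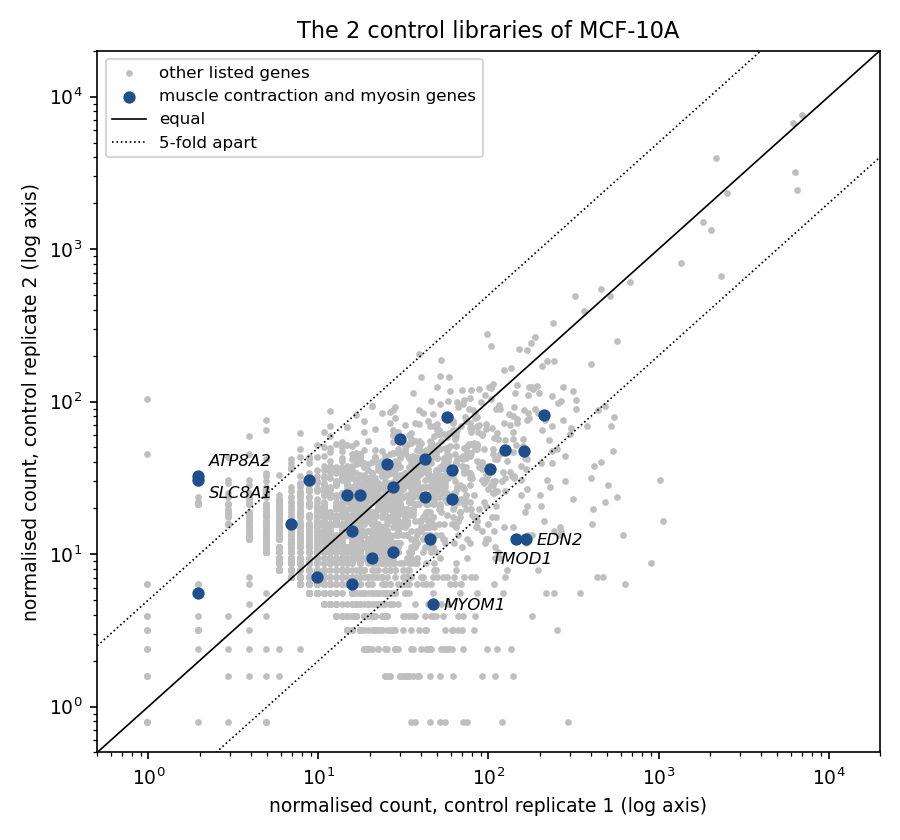
Normalised counts in control replicate 2 (vertical) against control replicate 1 (horizontal) for the listed MCF-10A genes, both axes logarithmic, with the 28 genes in blue and genes with 0 reads in either library not drawn. The solid line marks equal counts and the dotted lines a 5-fold difference; the 5 named genes lie outside the dotted lines.

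The GO terms of the deposited list that were not used to choose the genes group them further. Some, such as smooth muscle contraction and the myosin II complex, are close to the choosing terms, so their overlap was largely set beforehand. Of the 28 genes, 13 belong to blood circulation, which has 45 listed genes, and 11 to smooth muscle contraction, which has 15. Myofibril assembly holds 9 of the 28 among its 12 listed genes, and these are CAV3, MYBPC1, MYBPHL, MYH11, MYH3, MYL2, MYOM1, TMOD1 and TNNT2. All 6 listed genes of the myosin II complex are among the 28. At the other end, chemical synaptic transmission has 64 listed genes and shares 6 with the 28, namely ABAT, CHRM3, DTNA, HTR1D, TACR2 and UCN. Sarcomere proteins and signalling proteins thus stand side by side under the name of contraction. The 11 genes set aside also had 0 reads in both constriction libraries, against 89.6% of the table. Control replicate 2 held 3 reads of AGT and 2 of KCNJ2, which cannot be told from 0 at this depth. Of the 11 genes, 9 belong to the term for gated channels and 2 to the term for inflammation, AGT and CALCRL. AGT, CALCRL and KCNJ2 are named after their values were seen.

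The 28 genes are spread over 15 chromosomes, with 5 on chromosome 1 and 4 on chromosome 2. Most share some exon sequence with a gene on the opposite strand, which matters because the study's methods describe a directional and a non-directional library without saying which was made. Such overlaps occur in 16 genes, TNNT2 overlaps LAD1 on the same strand, and 11 genes share no exon base. Over 10% of the exon bases were shared with a single overlapping gene in 2 genes. TMOD1 shares 1669 bases (45.0%) with TSTD2, and CRYAB shares 626 bases (20.6%) with HSPB2. The reads of TMOD1 and CRYAB in control cells may thus include reads of a neighbour, and the part of such reads was not tested. Of the 23 overlapping genes, 3 are in the table, and these are the antisense genes AF001548.2, AP005329.2 and PRKG1-AS1. As to repeated sequence, 16 of the 28 genes had 0 stretches of 100 bases in common with a transcript of another gene. Over 1% of the stretches were shared in 7 genes and over 5% in 3, which were TMOD1 (43.5%), CRYAB (7.55%) and SLC8A1 (6.89%), each mostly with the gene that overlaps it. MYH3 belongs to a family of similar heavy chains, and 58 of its stretches (0.869%) were shared, 35 of them with MYH13.

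RefSeq promoter windows were found for 21 of the 28 genes and were not in the collection for MYL2, MYH11, SNTB1, SULF1, MYH3, CRYAB and MYH7B. Where a gene had several windows, the most upstream was taken, and 15 of the 21 start within 500 bases of the annotated 5′ end. The 250 bases before the start site were searched on both strands. An E-box was found in 12 of 21 windows (57.1%), against 61.9% of the 1039 windows of the table and 62.2% of all 27305 windows. TATAAA, the TATA box, was found in the windows of MYBPC1, MYLK and TMOD1 (14.3%), against 11.5% and 11.2%. M-CAT elements occurred in CHRM3, EDN2 and TNNT2 (14.3%), against 9.34% and 12%. The CArG box occurred in the windows of MYLK and MYOM1 printed above (9.52%), against 1.25% and 1.15%. A match to the MEF2 site was found in CAV3 alone (4.76%), against 2.12% and 2.90%. The windows held 59.5% G and C on average, and windows of listed genes 59.8%. With 21 windows, 1 more or fewer match moves a share by several percent, a match is not a bound site, and nothing was tested.

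**Figure D4:**
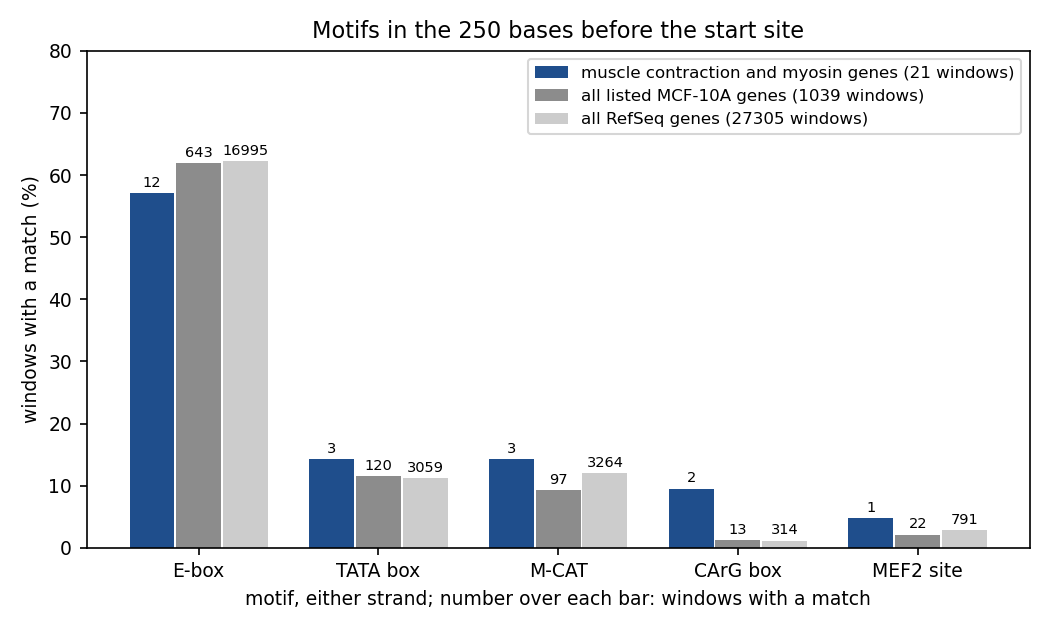
Share of promoter windows with a match to each motif in the 250 bases before the start site (vertical axis, percent), for 21 windows of the 28 genes, 1039 windows of listed MCF-10A genes and 27305 RefSeq windows. The number over each bar counts the windows with a match; the E-box is common in all 3 sets, and the CArG box bar of the 28 genes stands for 2 windows.

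What the table shows of other contractile genes was taken from 11 lists with 171 genes that are not among the 28, from muscle and non-muscle myosins to the dystrophin complex and calcium release. Of these 171 genes, 5 are listed in MCF-10A. The non-muscle heavy chains, the actins, the thin filament regulators, the dystrophin complex and the muscle transcription regulators each had 0 listed genes. A gene outside the table has no deposited value, so its level is unknown. MYLK4, a relative of MYLK, had 114 and 33 reads in control replicates 1 and 2 and 0 in both constriction libraries, at least 20.5-fold lower, 7.75-fold without control replicate 1 and 33.2-fold without control replicate 2. MYO15B, an unconventional myosin, had 53 and 26 control reads and 0 after transit, at least 10.8-fold lower, or 6.11-fold without control replicate 1. MYO15A, the unconventional myosin of the hair cells of the ear, had 11 and 8 control reads and 0 after transit. MYH16, a heavy chain that is a pseudogene in humans, had 10 and 11 control reads and 0 after transit, and shares 709 exon bases (11.2%) with a gene on the opposite strand. JPH3, a junctophilin that holds calcium stores to the plasma membrane, had 5 and 23 control reads and 0 after transit, at least 3.43-fold lower, 5.40-fold without control replicate 1 and 1.46-fold without control replicate 2.

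These 5 genes are in the table because of their unadjusted p-values on the same 4 libraries, so their calls were largely set beforehand. A test on them describes them, is not independent evidence and supports no conclusion. In edgeR's quasi-likelihood test over the table, all 5 were lower at an adjusted p under 0.05, as were 2447 of the 2680 table genes (91.3%). The adjusted p was 0.00469 for JPH3, MYH16, MYO15A and MYO15B and 0.00740 for MYLK4. In each of the 5 genes both constriction libraries lay below both control libraries, as in 94.5% of the table. The test took the spread between libraries from the listed genes alone, which were selected on the same difference. Its adjusted p-values can therefore be too small, and the same holds for the alternatives. With the replicate block, in which libraries that carry the same number form a pair, 4 of the 5 and 1988 of the 2680 table genes were called lower, and the adjusted p of MYLK4 was 0.527, within a range from 0.000828 to 1 over all alternatives. Its fitted log2 difference, which for a gene at 0 reads is no bound, was -8.94 with the block and -9.14 without. Limma on log2 normalised counts called 3 of the 5 with a pseudocount of 1, where JPH3 and MYLK4 did not pass and 1611 table genes did. With a pseudocount of 10 it called 0 of the 5 (4 at an unadjusted p under 0.05) and 0 genes of the whole table. In edgeR's test, 2 of the 5 passed without control replicate 1, and 0 without control replicate 2, without constriction replicate 1 and without constriction replicate 2 (4, 3, 5 and 5 at an unadjusted p under 0.05). In these 4 tests fewer genes of the whole table passed in either direction than the 2451 with all libraries, with 557 without control replicate 1, 4 without control replicate 2, 0 without constriction replicate 1 and 69 without constriction replicate 2, of which 68 were higher.

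Markers of cell types were listed in small numbers. Of the 16 markers of basal breast epithelium, KRT16 alone was listed, a keratin of stressed epithelium with 2519 and 3029 reads in constriction replicates 1 and 2 and 7163 and 9641 in control replicates 1 and 2. The constriction libraries had a normalised KRT16 count of 3086 ± 70.0 and the control libraries of 7312 ± 424 (each SD, n = 2). This keratin was read in every library, and its mean control FPKM of 82.0 lay above the 3.04 of UCN, the highest of the 28 genes. None of the 12 markers of skeletal muscle, 8 of cardiac muscle, 9 of smooth muscle and myoepithelium or 5 of leukocytes was listed, so these lists give no value for such cells. Muscle genes among the 28, such as TNNT2 and MYH11, did have reads in control cells. PDGFRB, the 1 listed of 7 fibroblast markers, had 22 reads in each control library and 0 after transit. PECAM1, the 1 listed of 4 endothelial markers, had 71 and 48 control reads and 0 after transit. The part of other cell types in the result was not tested.

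In the other cell lines, 0 of the 28 genes were listed, neither among the 381 genes of the MDA-MB-231 table nor among the 97 of the LM2 table. The same holds for the 171 other contractile genes. Their levels in these lines are therefore not known from the deposited tables, and whether the contraction genes differed between the cell lines was not tested.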

How the data were processed

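RNA sequencing of MCF-10A cells was analysed from the table that the authors deposited, with 2 constriction and 2 control libraries. The authors filtered reads with fastp, aligned them to GRCh38 with HISAT2 2.0.5 and counted them per gene with featureCounts 1.5.0-p3, and these read counts are deposited. The deposited normalised counts (signal) are counts over a size factor per library (0.830, 0.966, 1.02 and 1.27), and the deposited FPKM values were made by the authors from counts and gene lengths. The deposited p-value of each gene is from the authors' DESeq2 1.20.0 comparison, and before adjustment it is under 0.05 for every listed gene. The paper states an adjusted p of at most 0.05 as its limit, but some genes that it names, KRT16 among them, lie above this limit. Positions and lengths of all 2680 genes matched GENCODE 29.

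The members and gene lists were chosen with earlier results of these data known. Named genes are every member, every listed gene of the other contractile lists and every listed marker. Library totals were computed from counts, FPKM and gene lengths. Python 3.11.15 was used, and R 4.3.3 with edgeR 4.0.16 for the two-sided test of all table genes, with the deposited size factors. Benjamini-Hochberg adjustment ran over 19236 genes, a number that the authors' raw and adjusted p-values imply, and genes outside the table entered at a p of 1. The tools were tested on simulated data. The edgeR test was unpaired. A supplementary table of the study lists both conditions side by side for every replicate experiment, so an alternative took the replicate number as a block. The correlation of deviations from group means between libraries of the same number was -0.0427 over 2680 genes. Since 89.6% of these genes had 0 reads in both constriction libraries, this value was largely set beforehand. It does not decide whether the libraries are paired.

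Alternatives were DESeq2 1.42.0, limma 3.58.1 with pseudocounts of 1 and 10, TMM factors, the replicate block, a filter on genes with a mean under 10, pseudocounts of 0.5 and 10, FPKM, raw counts and CPM in place of normalised counts, a floor of 3 reads in place of 0, and each library left out in turn. Leaving each control library out of the fold bounds was added after the data were seen.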

Additional observations from a re-analysis of the deposited data

How the results depend on the processing

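The count of genes with groups apart was 27 of 28 on raw counts, FPKM and CPM, 27 to 28 with each library left out, where CAV3 lay above control without constriction replicate 2 and below it without constriction replicate 1, and 94.4% of the 18 genes whose mean normalised count reached 10. With at most 3 reads in place of 0 in both constriction libraries, 27 genes were counted in place of 26, and with each library left out 26 to 27. With the minimum mean of 10, 16 of 18 genes had 0 reads, because fewer genes entered.

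The median log2 difference, -4.82, was -5.80 with a pseudocount of 0.5, -1.90 with 10, -0.16 on log2(FPKM + 1) (table -0.31), -5.28 with TMM factors, where the table's median moved from -4.05 to -4.54, -3.07 with genes of 0 to 3 reads at their bound and -5.45 with the minimum mean of 10. With each library left out it lay between -4.90 and -4.65. For genes at 0 reads, the size of a log2 difference follows the pseudocount by construction, and 44 of 56 values of single genes moved with it by more than the spread between replicates. The value of CAV3 was -2.25 without constriction replicate 1 and 6.53 without constriction replicate 2.

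Of the 5 other contractile genes called by edgeR, DESeq2 and TMM factors called 5 (2446 and 2337 table genes lower). The TMM factors came from the listed genes alone and were very unequal, at 8.69 and 0.191 for constriction replicates 1 and 2. For control replicates 1 and 2 they were 0.754 and 0.799. The replicate block called 4 (1988), limma with a pseudocount of 1 called 3 (1611), and limma with 10 called 0 (4 at an unadjusted p under 0.05, and 0 table genes called). With the minimum mean, 2 of 2 tested were called. With each library left out, 0 to 2 were called: 2 without control replicate 1, and 0 without each of the others (3 to 5 at an unadjusted p under 0.05). The lone library of a group is then assumed to vary like the other group, and the cause of the lost calls was not tested. For MDA-MB-231 and LM2, no other setting gave a value, since no member is listed there. Counts of up to 3 reads are not told from 0 at this depth.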
